A study of Homo sapiens with 18 samples.

Results

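The ZNF genes of chromosome 19 were examined in 2 human multiple myeloma cell lines, KMS12-BM and JJN3, under 3 conditions each. The set holds the protein-coding genes of chromosome 19 whose symbol is ZNF followed by a digit. The annotation (GENCODE, GRCh37) lists 249 such genes, and 247 of them were present in the count files. Of these, 236 reached 10 or more counts in at least 3 of the 18 libraries and were kept, among 57905 counted genes and 17798 with the same minimum. The kept genes with the fewest libraries over the minimum, ZNF112, ZNF154, ZNF541, ZNF559-ZNF177 and ZNF625, reached it in exactly 3, and the nearest genes left out, ZNF676 and ZNF888, reached it in 2. The other genes left out reached it in 0 libraries, and ZNF229 and ZNF8 were not analysed here.

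RNA was measured by strand-specific RNA sequencing in 3 libraries for each of the 6 groups. KMS12-BM cells (KMS-12 in another label field) received DMSO, 0.1 mM amiloride or 0.4 mM TG003, and JJN3 cells received DMSO, 0.4 mM amiloride or 0.4 mM TG003. Both drugs were given for 24 h, and the labels call the DMSO cells untreated without naming a time. Amiloride is a potassium-sparing diuretic that blocks epithelial sodium channels, and TG003 is an inhibitor of the CLK kinases, which phosphorylate splicing factors. Nothing in the labels ties the libraries of a group to separate cultures. The p-values therefore cover the spread among these samples alone, which may be technical. The amiloride dose differed between the lines, so a line difference in the amiloride response cannot be told apart from a dose difference.

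Most ZNF genes of chromosome 19 encode proteins with an array of C2H2 zinc fingers that binds DNA and, at the amino end, a KRAB domain. The KRAB domain recruits the corepressor TRIM28, which brings the histone methyltransferase SETDB1, heterochromatin proteins such as CBX5, and histone deacetylase complexes to the bound site. Many of these proteins silence transposable elements, and the family grew by tandem duplication, so its genes stand in long runs and resemble each other in sequence.

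A KRAB-type amino acid pattern was found in the coding sequence of 197 of the 232 genes that could be classed, and 161 of these matched the stricter of the 2 patterns searched. The number of C2H2 zinc finger matches ranged from 1 to 36 with a median of 12. The exons were poor in G and C: the median GC content was 42.4%, against 48.4% in protein-coding genes, and it was 41.9% in genes with a KRAB pattern and 61.8% in the 35 without. Along the chromosome, all but 20 of the genes stood in 7 runs of 14 to 56 genes. In 106 genes at least 5% of the 50-base words of the exons occurred elsewhere in the genome, up to 47.5%, and 144 genes shared exon bases with another annotated gene, 89 on the same strand and 79 on the opposite strand. Reads of such genes can be lost or shared in counting, and the strand setting used in counting is not given in the sources used here.

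RefSeq promoter windows of the 250 bases before the gene start (GRCh38.p14) were matched by symbol for 208 of the 236 genes. They held a median of 16 CpG dinucleotides and 59.4% GC, against 11 and 58.0% in all 35116 windows and 16 and 62.0% in the 22199 windows of protein-coding genes. The letters CCGGAAG, a core bound by ETS factors, occurred on either strand in 32.2% of the ZNF windows, 8.52% of all windows and 10.7% of protein-coding windows. CCAAT occurred in 51.4%, 32.0% and 32.7%, the GC box GGGCGG in 64.4%, 42.6% and 53.7%, and the TATA letters TATAAA in 1.92%, 10.7% and 9.0%. The ZNF windows are part of both larger sets, and a match describes letters and not binding. Among ZNF genes that amiloride raised, lowered or left uncalled in KMS12-BM, CCGGAAG was present in 32.7% of 107, 38.2% of 34 and 25.4% of 59 windows.

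3 promoter windows are shown because their genes were close to silent in one line and expressed in the other, as described with the levels. ZNF256 was expressed in JJN3, ZNF556 in KMS12-BM, and ZNF382 in JJN3 and, after amiloride, weakly in KMS12-BM. CpG dinucleotides are in capitals, and the windows hold 22, 4 and 24 of them. All 3 windows hold the GC box, the windows of ZNF256 and ZNF556 hold CCAAT, and that of ZNF256 also holds the ETS core. Their positions are chr19:57947707-57947956 (minus strand), chr19:2867085-2867334 (plus strand) and chr19:36605063-36605312 (plus strand).
ZNF256: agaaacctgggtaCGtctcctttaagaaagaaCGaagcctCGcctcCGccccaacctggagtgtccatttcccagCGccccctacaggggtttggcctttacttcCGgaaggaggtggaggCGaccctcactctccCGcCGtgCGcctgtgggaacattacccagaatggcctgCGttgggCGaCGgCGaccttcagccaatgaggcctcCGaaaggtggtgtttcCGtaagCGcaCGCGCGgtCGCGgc
ZNF556: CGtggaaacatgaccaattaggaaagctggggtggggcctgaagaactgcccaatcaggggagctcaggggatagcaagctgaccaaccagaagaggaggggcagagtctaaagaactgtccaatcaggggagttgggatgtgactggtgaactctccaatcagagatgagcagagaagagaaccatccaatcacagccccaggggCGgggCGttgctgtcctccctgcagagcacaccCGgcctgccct
ZNF382: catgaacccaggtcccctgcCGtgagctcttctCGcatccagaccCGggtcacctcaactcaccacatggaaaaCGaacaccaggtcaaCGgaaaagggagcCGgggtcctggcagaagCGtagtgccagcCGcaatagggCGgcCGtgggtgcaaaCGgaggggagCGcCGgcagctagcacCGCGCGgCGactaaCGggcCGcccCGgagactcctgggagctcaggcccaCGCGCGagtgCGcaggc

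Each library held 23707695 to 50570234 reads assigned to genes. The share of alignments placed at more than 1 position was 7.791% to 9.125% in the 6 TG003 libraries and 13.26% to 17.44% in the 12 others. The share of alignments not assigned to a gene, those included, was 17.52% to 18.95% in the TG003 libraries and 28.03% to 31.18% in the others. The TG003 libraries of both lines thus stood apart from their DMSO controls in both shares. The sample record numbers of the 6 TG003 libraries also form a block apart from those of the 12 others, and the labels give no reason. A drug effect and a difference in how that block was processed cannot be told apart. The part of these differences in the TG003 results was not tested, and they bear on every TG003 comparison below. Of 9 plasma cell markers, 7 to 9 were at 1 CPM (reads per 1000000, TMM-scaled) or more in each group, and their sum was 2070 to 2160 CPM in KMS12-BM and 4450 to 4800 in JJN3 with DMSO. With amiloride the sum was 2820 to 3150 in KMS12-BM and 4240 to 4920 in JJN3, and with TG003 it was 905 to 961 and 2200 to 2440. JCHAIN was the largest part of the JJN3 sum with DMSO, at a mean of 2570 CPM against 1.64 in KMS12-BM. Means of SDC1, PRDM1, XBP1 and SLAMF7 with DMSO were also higher in JJN3, and those of IRF4, MZB1, TNFRSF17 and CD38 in KMS12-BM. Of 16 markers of other cells, 3 to 6 were at 1 CPM or more in a group. Among them with DMSO were PAX5, KRT8 and EPCAM at 51.9, 28.2 and 113 CPM in KMS12-BM and HBB at 59.9 in JJN3. Of the T cell markers with DMSO, CD3D was at 0.00827 CPM in KMS12-BM and 0 in JJN3. CD3E was at 1.25 and 1.63, and CD2 at 0 and 0.567. In bulk RNA, fewer cells that express a gene and less RNA per cell cannot be told apart.

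Levels were compared between genes as RPKM, CPM per kilobase of merged exons. With DMSO, the ZNF genes had a median RPKM of 1.99 in KMS12-BM and 1.83 in JJN3, below the 4.33 and 4.55 of the 13054 protein-coding genes with the same minimum. ZNF genes of other chromosomes stood between, at 3.36 and 2.73. RPKM in the 2 lines correlated across the 236 genes with a Spearman rho of 0.652, a description over genes that share libraries. ZNF146, which has 10 fingers and no KRAB pattern, was the most abundant at 53.0 RPKM in KMS12-BM and 60.9 in JJN3. ZNF581 followed at 18.7 and 19.7, ZNF317 at 13.4 and 15.7, ZNF480 at 12.5 and 9.92, ZNF428 at 12.9 and 9.61, and ZNF473, a factor in histone pre-mRNA processing, at 12.5 and 8.56. Under 1 RPKM stood 66 genes in KMS12-BM and 83 in JJN3.

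**Figure D1:**
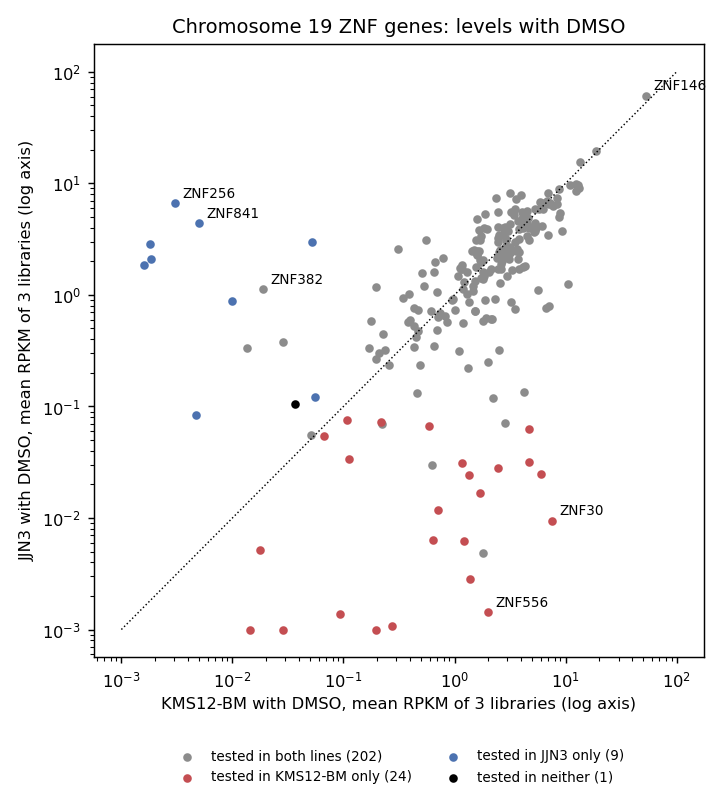
Mean RPKM of each of the 236 chromosome 19 ZNF genes with DMSO in KMS12-BM (horizontal, log axis) and JJN3 (vertical, log axis), with the lowest values drawn at the axis edge. Colours mark genes that passed the count filter in both lines (202), in KMS12-BM only (24), in JJN3 only (9) and in neither (1); ZNF146 is highest, and ZNF256 and ZNF556 lie at opposite edges.

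The first comparison asks how the lines differ without drug, and the differences were grouped along the chromosome. With DMSO, 104 of the 236 genes were higher in KMS12-BM and 77 were higher in JJN3 at an adjusted p under 0.05 (edgeR quasi-likelihood test, Benjamini-Hochberg adjustment over 17772 genes). Of all tested genes, 36.8% were called higher and 39.3% lower in KMS12-BM, against 44.1% and 32.6% of the ZNF genes. Called either way were 76.0% of all genes. The libraries of the lines did not overlap for 185 ZNF genes (78.4%) and 78.5% of all genes. The median log2 difference was 0.13, against -0.04 over all genes. A gene kept because of its level in 1 line had to differ, so these counts are a description.

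Run 3, the ZNF genes between 19.8 and 24.3 Mb, was higher in KMS12-BM nearly throughout: 31 of 35 genes were called higher and 1 lower, with a median log2 difference of 1.59. ZNF43 of this run stood at 55.8, 57.1 and 60.1 CPM in the KMS12-BM libraries and at 6.19, 7.24 and 6.49 in JJN3, a log2 difference of 3.11 ± 0.11 (SE; edgeR adjusted p = 3.01e-16). ZNF93, which silences L1 elements, stood at 28.7, 32.2 and 33.9 CPM against 6.26, 6.82 and 5.44 (2.35 ± 0.12, adjusted p = 2.12e-13). ZNF91, which silences SVA elements, stood at 37.6, 38.3 and 40.5 CPM against 19.3, 23.8 and 21.6 (0.84 ± 0.12, adjusted p = 2.38e-06). In these 3 genes every KMS12-BM library was above every JJN3 library. Of the 25 tested genes in the same span that are not protein-coding, 15 were higher in KMS12-BM and 2 lower, with a median of 0.92, and 0 other protein-coding genes were tested there. ZNF675 of the same run, an inhibitor of TRAF6 signalling, was at 17.4 ± 0.242 CPM (SD, n = 3) and 17.2 ± 1.57, and its difference was not called (0.01 ± 0.11, adjusted p = 0.922; edgeR).

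Run 5, between 44 and 45.6 Mb, leaned the other way: 16 of 23 genes were higher in JJN3 and 4 in KMS12-BM, with a median of -0.98. ZNF233 stood at 1.83, 2.43 and 2.49 CPM in KMS12-BM and at 12.9, 13 and 11.9 in JJN3 (-2.47 ± 0.13, adjusted p = 3.95e-13). ZNF221 stood at 1.15, 0.844 and 0.823 CPM against 2.28, 3.24 and 2.05 (-1.46 ± 0.27, adjusted p = 5.68e-05). ZNF224, a partner of WT1, stood at 10.2, 11.6 and 12.1 CPM against 16.5, 17.6 and 15.2 (-0.54 ± 0.09, adjusted p = 2.87e-05). Each of the 3 was lower in every KMS12-BM library than in every JJN3 library. Of the 19 other protein-coding genes tested in that span, 11 were higher in JJN3 and 5 in KMS12-BM (median -0.43). The 5 tested genes there that are not protein-coding went the other way, with 3 higher in KMS12-BM and 2 in JJN3 (median 1.17). In runs 1, 2, 4, 6 and 7 the medians lay between -0.15 and 0.26. Whether DNA copy number moves with these spans was not tested.

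The count filter was passed by 24 genes in KMS12-BM alone and by 9 in JJN3 alone. With DMSO, the 24 had means of 0.0618 to 20.6 CPM in KMS12-BM, 11 of them at 5 or more, and of up to 0.311 in JJN3. The 9 had means of 0.408 to 18.9 CPM in JJN3, 6 of them at 5 or more, and of up to 0.226 in KMS12-BM. Some genes were near 0 in 1 of the lines. ZNF256 had 0, 0 and 0.0201 CPM in KMS12-BM and 16, 14.6 and 13.6 in JJN3. Its 1 against 1284 reads gave a scaled ratio with a 95% exact counting interval (1770, interval 316 to 69800). ZNF880 (1 against 937 reads; ratio 1290, interval 231 to 51000), ZNF234 (1 against 849 reads; ratio 1170, interval 209 to 46200), ZNF132 (1 against 663 reads; ratio 912, interval 163 to 36100) and ZNF841 (3 against 1666 reads; ratio 764, interval 261 to 3710) were likewise expressed in JJN3. ZNF155 had 22 against 897 reads, a 56.1-fold difference. The intervals cover counting error only.

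In the other direction, ZNF556 had 13.6, 12.8 and 12.8 CPM in KMS12-BM and 0, 0.0282 and 0 in JJN3. Its 1554 against 1 reads gave a ratio of 1130, interval 202 to 44700. ZNF30 (2505 against 2 reads; ratio 911, interval 252 to 7520), ZNF347 (1522 against 2 reads; ratio 553, interval 153 to 4570), ZNF578 (1476 against 3 reads; ratio 358, interval 122 to 1740) and ZNF415 (562 against 2 reads; ratio 204, interval 56.3 to 1690) followed. ZNF723 in run 3 had 1345 against 4 reads, a 244-fold difference. ZNF99, also in run 3 and named after its values were seen, had 186 against 0 reads, at least 45.1-fold higher in KMS12-BM when the JJN3 total is set to the floor of 3 counts over its libraries.

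Among genes with a described role, ZNF331, an imprinted gene, was at 33.2 ± 1.05 CPM in KMS12-BM and 14.8 ± 0.509 in JJN3 (SD, n = 3; log2 1.17 ± 0.08, adjusted p = 4.2e-11, edgeR). ZNF587 and ZNF417, paralogs that silence endogenous retroviruses, were lower in KMS12-BM, by log2 differences of -1.38 ± 0.09 and -0.50 ± 0.12. Repeated 50-base words make up 26.7% and 34% of their exons, so the split of reads between them is uncertain. ZNF808, needed for pancreas development, was also lower (-1.0 ± 0.12), and ZNF568 (0.58 ± 0.12) and ZNF420, a regulator of p53 (0.56 ± 0.10), were higher. Small differences of ZNF146 (-0.20 ± 0.08), ZNF274 (0.19 ± 0.07) and ZNF428 (0.43 ± 0.17) were called but were lost without single libraries: ZNF146 without KMS12-BM DMSO replicate 1 (-0.14) or JJN3 DMSO replicate 2 (-0.15), ZNF274 without KMS12-BM DMSO replicate 3 (0.17), JJN3 DMSO replicate 2 (0.15) or replicate 3 (0.18), and ZNF428 without KMS12-BM DMSO replicate 1 (0.21), JJN3 DMSO replicate 2 (0.38) or replicate 3 (0.41). They were also lost with the GC trend removed for ZNF146 (-0.12), without a filter on low counts for ZNF274 (0.17) and in a fit without the TG003 libraries for ZNF428 (0.44).

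The next comparison asks what amiloride changed in KMS12-BM, where more ZNF genes rose than fell. Of the 226 genes tested there, 118 rose and 41 fell at an adjusted p under 0.05 (edgeR), against 33.5% of all 15765 tested genes called higher and 35.2% called lower. Of all genes 68.7% were called either way. The ZNF shares were 52.2% and 18.1%, and the median log2 change was 0.31, against -0.02 over all genes. At least 2-fold rises were called in 30 of the 226 ZNF genes, against 12% of all tested genes. At least 2-fold falls were called in 21, against 17.6% of all tested genes. The amiloride and DMSO libraries did not overlap for 168 ZNF genes (74.3%) and 71.7% of all genes. ZNF genes of other chromosomes moved likewise, with 116 higher and 53 lower of 212 and a median of 0.36, while the other protein-coding genes of chromosome 19 had 145 higher and 341 lower of 729 and a median of -0.30. Reads in the 236 genes made up 0.3755% ± 0.0154 (SD, n = 3) of reads in genes with DMSO and 0.5202% ± 0.0275 with amiloride. Of the plasma cell markers, mean IRF4 went from 1160 to 2090 CPM in the same libraries, MZB1 from 323 to 81.7 and SDC1 from 13.6 to 2.58, and their part in the result was not tested.

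GC content moved with this response. Other protein-coding genes with under 42% GC had a median log2 change of 0.36 and those over 46% a median of -0.28. The ZNF genes in the same classes had medians of 0.30 (105 genes) and 0.07 (43 genes), and between 42 and 44% GC, 29 of 45 ZNF genes were higher (64.4%) against 48.7% of 931 other protein-coding genes. When the trend on GC content was removed from each library, 92 genes were higher and 61 lower and the median was 0.11. Shares over all genes are not given for this or the other alternative fits below, so such counts cannot be set against the shares above.

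Among called genes with a mean of at least 2 CPM and libraries that did not overlap, ZNF844 rose most. That condition fixed the lack of overlap of the genes named by size of change, here and in the later drug comparisons. ZNF844, a KRAB gene at chr19:12175546-12192380 (GRCh37) in run 2, stood at 27, 25.5 and 28.5 CPM with DMSO and at 78.4, 86.8 and 101 with amiloride, a log2 change of 1.72 ± 0.10 (edgeR adjusted p = 1.27e-07). ZNF763 of the same run went from 1.49, 1.46 and 1.59 CPM to 4.47, 3.99 and 6.15 (1.68 ± 0.19, adjusted p = 1.04e-05). Every amiloride library exceeded every DMSO library in both genes, and they share 45.3% and 44.5% of their exon bases with other genes on the same strand. ZNF585A in run 4 went from 10.4 ± 1.39 to 30.9 ± 5.32 CPM (1.57 ± 0.14, adjusted p = 1.42e-06; edgeR). ZNF776 in run 7 went from 22.4, 21.4 and 22.6 CPM to 51.9, 64 and 74, with no overlap (1.51 ± 0.12, adjusted p = 7.6e-07). ZNF490 and ZNF429 rose by 1.49 ± 0.15 and 1.39 ± 0.14, and ZNF420 by 1.09 ± 0.10.

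ZNF382 had the largest rise of all tested ZNF genes, from near silence. ZNF382 (chr19:37095719-37125016), a KRAB gene whose promoter is often methylated in tumours, stood at 0.102, 0.223 and 0.321 CPM with DMSO and at 1.74, 2.4 and 2.52 with amiloride in KMS12-BM. The reads were 3, 9 and 16 against 68, 106 and 75, with no overlap, and the log2 change was 3.26 ± 0.30 (edgeR adjusted p = 2.38e-06). In JJN3 it was at 12.1, 13.2 and 13.2 CPM with DMSO and 10.7, 10.8 and 11 with amiloride, a change that was not called (-0.25 ± 0.11, adjusted p = 0.0881; edgeR). Other barely expressed genes rose in KMS12-BM, named here after their values were seen: ZNF610 from 1, 2 and 3 reads to 12, 12 and 15 (2.73 ± 0.48, adjusted p = 0.000318), ZNF154, a gene known for promoter methylation in cancers, from 4, 3 and 8 to 30, 28 and 33 (2.69 ± 0.37, adjusted p = 4.63e-05), and ZNF112 from 4, 2 and 7 to 23, 20 and 11 (2.10 ± 0.42, adjusted p = 0.000852). A gene that passed the count filter through its amiloride libraries had to rise. ZNF154 and ZNF112 reached 10 counts in exactly 3 libraries, the amiloride libraries of KMS12-BM, and ZNF610 reached it in no DMSO library of KMS12-BM. ZNF382 was tested in KMS12-BM only through its treated libraries, since of its DMSO libraries there only the one with 16 reads reached 10 counts. The rises of ZNF382, ZNF610, ZNF154 and ZNF112 are therefore a description, and they are among the rises counted above.

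The falls in KMS12-BM included several GC-rich genes without a KRAB pattern. ZNF784 (chr19:56132107-56135932, 64.8% GC) went from 3.89, 3.1 and 3.15 CPM to 0.895, 0.522 and 0.504 (-2.38 ± 0.25, adjusted p = 5.8e-06). ZNF428 (60.2% GC) went from 25.9, 17.4 and 17 CPM to 8.57, 5.99 and 5.85 (-1.56 ± 0.19, adjusted p = 2.56e-05). The groups did not overlap in either gene, nor in ZNF580 (69.2% GC), which went from 34.2 ± 0.291 to 12.3 ± 2.45 CPM (-1.47 ± 0.14, adjusted p = 2.2e-06; edgeR). The KRAB genes ZNF584, ZNF587B and ZNF552 of run 7 fell too, with log2 changes of -1.98 ± 0.14, -1.83 ± 0.19 and -1.85 ± 0.18. By run, run 6 had 24 rises and 3 falls among 35 tested genes (median 0.46), run 7 had 26 and 14 of 53 (0.26), and run 5 had 6 and 5 of 21 (0.01).

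**Figure D2:**
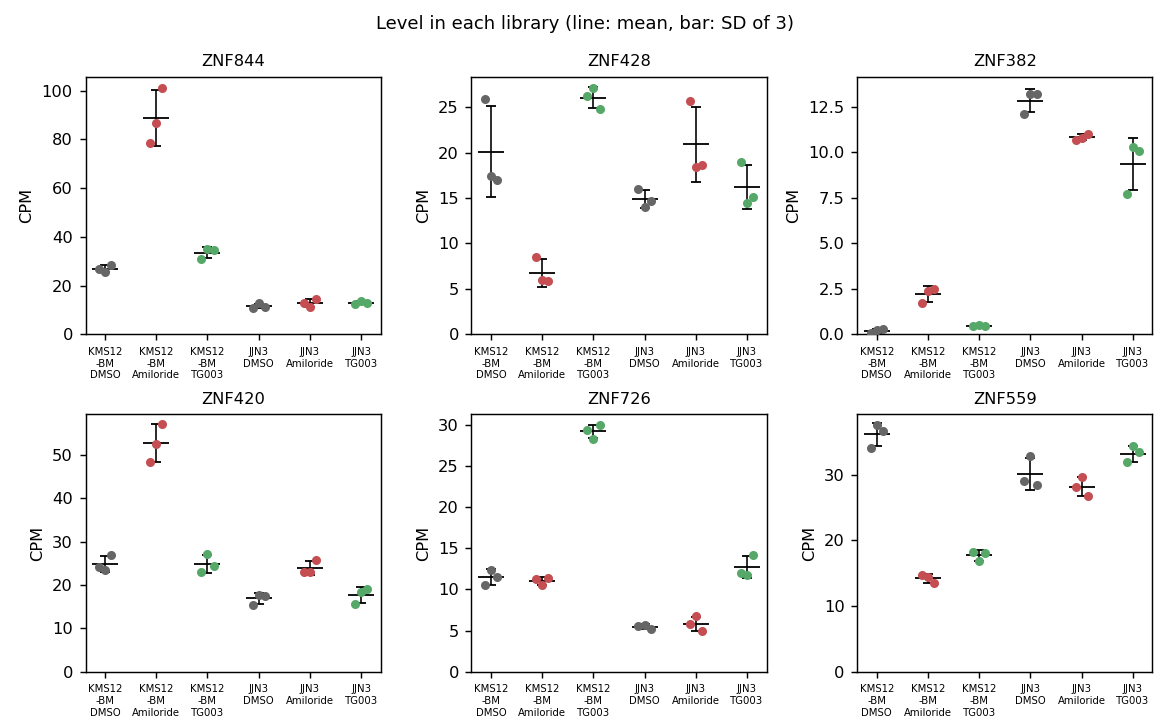
TMM-scaled CPM in each of the 18 libraries (points), with the mean and SD of the 3 libraries of a group, for ZNF844, ZNF428, ZNF382, ZNF420, ZNF726 and ZNF559. ZNF844 and ZNF420 are highest with amiloride in KMS12-BM, ZNF382 is near 0 in KMS12-BM without amiloride, ZNF726 is highest with TG003 within each line, and ZNF559 is lower with either drug in KMS12-BM.

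Of 188 tested genes with a KRAB pattern, 101 rose and 34 fell (median 0.35), and of 34 without, 13 rose and 7 fell (median 0.135). By the stricter pattern, 85 of 153 genes with it rose and 31 fell, and of 69 without it 29 rose and 10 fell. The genes without a KRAB pattern are richer in G and C, and the parts of KRAB pattern and GC content were not tested. Among abundant genes, ZNF146 went from 202, 222 and 235 CPM to 308, 343 and 366 (0.63 ± 0.08, adjusted p = 3.19e-05) and ZNF317 from 67.7, 67.2 and 68.2 to 103, 111 and 130 (0.76 ± 0.09, adjusted p = 1.68e-05). ZNF274, which binds the 3′ ends of other ZNF genes and recruits SETDB1, rose by 0.41 ± 0.07. ZNF91 and ZNF432, a protein of DNA repair, rose by 0.29 ± 0.08 and 0.30 ± 0.12, but both were at -0.13 and -0.04 with the GC trend removed. The ZNF432 call was lost without DMSO replicate 1 (0.22), DMSO replicate 2 (0.34), amiloride replicate 2 (0.25) or amiloride replicate 3 (0.26), and in a fit without the TG003 libraries (0.32). ZNF93 (0.14 ± 0.11, adjusted p = 0.273; edgeR) and ZNF473 (-0.13 ± 0.09) were not called.

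In JJN3, 0.4 mM amiloride moved fewer ZNF genes, and more of them downward. Of 211 tested genes, 20 rose and 50 fell (edgeR, adjusted p under 0.05), against 19.7% and 23.9% of 15704 tested genes. The ZNF shares were 9.48% and 23.7%, so the share of falls was that of all genes and the share of rises was lower. The median log2 change was -0.10, against -0.03. Rises of at least 2-fold were called in 1 of the 211 ZNF genes, against 2.78% of all genes, and falls in 2, against 4.36%. The libraries did not overlap for 100 genes (47.4%), against 51.7% of all genes. Without a filter on low counts, 25 rose and 38 fell. Without DMSO replicate 2 the counts were 13 and 33, and without DMSO replicate 3, 13 genes rose. Reads in the 236 genes made up 0.3268% ± 0.00879 of reads in genes with DMSO and 0.3375% ± 0.00849 with amiloride (SD, n = 3). Among genes with under 42% GC, 8 of 95 ZNF genes rose and 26 fell, while 26.2% of 3172 other protein-coding genes rose and 20.2% fell.

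ZNF616 and ZNF528 of run 6 were among the rises. ZNF616 went from 15.5, 18.3 and 16.2 CPM to 24.2, 26.9 and 26.6 (0.63 ± 0.10, adjusted p = 0.00034), and ZNF528 from 6.73, 8.91 and 7.75 to 10.7, 11.8 and 13.1 (0.60 ± 0.12, adjusted p = 0.0014). ZNF582, whose promoter is methylated in cervical cancer and which had 0, 0 and 5 reads in KMS12-BM with DMSO, went from 2.79, 2.85 and 3.22 CPM to 5.08, 4.37 and 4.42 (0.64 ± 0.14, adjusted p = 0.00281). The amiloride libraries were above the DMSO libraries in each of the 3. ZNF610, named after its values were seen, had the largest called rise, from 25, 58 and 25 reads to 54, 104 and 118 (1.08 ± 0.23, adjusted p = 0.00231). ZNF780A, ZNF585B and ZNF420 rose by 0.57 ± 0.14, 0.51 ± 0.10 and 0.50 ± 0.10. ZNF428, which fell in KMS12-BM, went from 16, 14 and 14.7 to 25.7, 18.4 and 18.6 CPM in JJN3 (0.48 ± 0.15, adjusted p = 0.0186). That call was lost without DMSO replicate 2 (0.42), DMSO replicate 3 (0.47) or amiloride replicate 1 (0.30).

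The falls in JJN3 included ZNF724 of run 3, from 5.43, 6.14 and 5.23 CPM to 2.96, 2.9 and 2.18 (-1.09 ± 0.15, adjusted p = 0.000141), and ZNF784, from 8.22, 7.98 and 7.04 to 5.54, 4.63 and 3.39 (-0.80 ± 0.16, adjusted p = 0.00139). The groups did not overlap in either, and ZNF724 shares 44.7% of its exon bases with another gene on its strand. ZNF599, ZNF675 and ZNF233 fell, with log2 changes of -0.75 ± 0.15, -0.70 ± 0.11 and -0.63 ± 0.10. ZNF221 fell (-0.72 ± 0.26), a call that was lost without DMSO replicate 2 (-0.50), amiloride replicate 1 (-0.65) or amiloride replicate 3 (-0.70), and with limma voom (-0.71). Of the genes with a described role, ZNF331 (-0.35 ± 0.09), ZNF417 (-0.51 ± 0.12), ZNF432 (-0.37 ± 0.10), ZNF568 (-0.58 ± 0.12), ZNF808 (-0.63 ± 0.11) and ZNF587 (-0.31 ± 0.09) fell. The ZNF587 call was lost without DMSO replicate 2 (-0.26) or replicate 3 (-0.28). Run 3 held 0 rises and 10 falls among 28 tested genes.

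**Figure D3:**
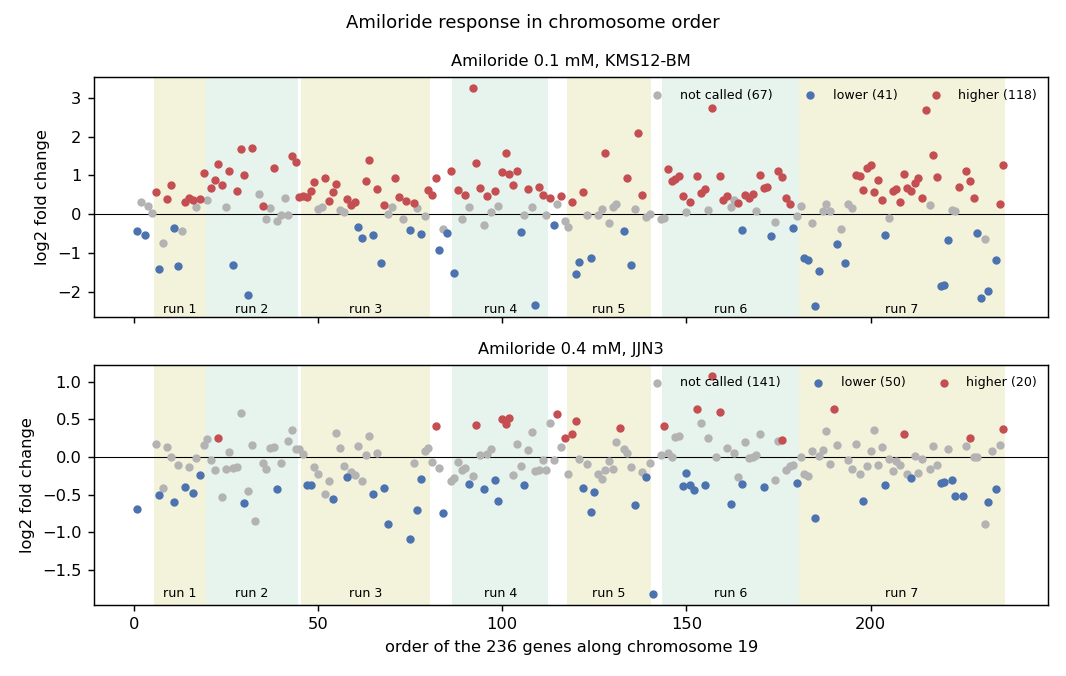
Log2 fold change with amiloride in KMS12-BM (top, 0.1 mM) and JJN3 (bottom, 0.4 mM) for each tested gene, in the order of the 236 genes along chromosome 19; shaded bands are the 7 runs, and colours mark genes called higher, lower or not called. Rises outnumber falls in KMS12-BM in all 7 runs (118 and 41 over all tested genes).

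The line difference itself was tested by an interaction term over all 18 libraries. It was called for 104 genes with the more positive change in KMS12-BM and for 26 with the more positive change in JJN3, against 21.6% of all 17772 genes in each direction. The ZNF shares were 44.1% and 11%, and the median was 0.41, against 0.01 over all genes. ZNF genes of other chromosomes gave 99 and 29 of 224, with a median of 0.34. With the GC trend removed the counts were 90 and 32 and the median was 0.27, without a share over all genes beside them. ZNF382 (3.48 ± 0.29, adjusted p = 1.74e-08) and ZNF428 (-2.04 ± 0.25, adjusted p = 2.62e-06) had interactions in opposite directions (edgeR). ZNF784 fell in both lines, and further in KMS12-BM (-1.58 ± 0.30, adjusted p = 0.000235).

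Among the 202 genes tested in both lines, 14 rose in both, which is 12.7% of the 110 that rose in KMS12-BM and 77.8% of the 18 that rose in JJN3. Falls in both came to 14, which is 40.0% of the 35 falls in KMS12-BM and 30.4% of the 46 in JJN3. A rise in KMS12-BM with a fall in JJN3 was called for 17 genes, and the reverse for ZNF428 alone. Shares over all genes are not given for these overlaps, so they are not read as agreement between the lines. ZNF420, ZNF528, ZNF585A, ZNF585B, ZNF610 and ZNF616 were among those that rose in both, and ZNF221, ZNF552, ZNF584, ZNF587B, ZNF724 and ZNF784 among those that fell in both.

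**Figure D4:**
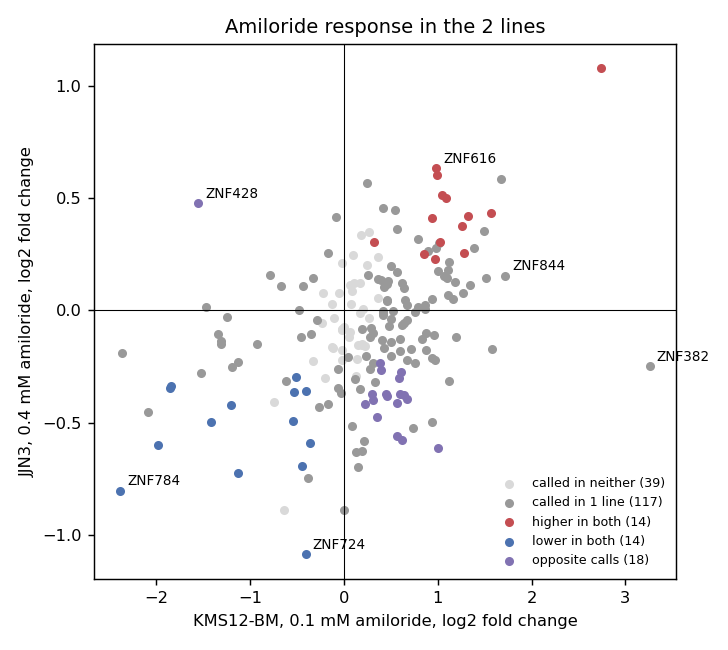
Log2 fold change with amiloride in KMS12-BM (horizontal, 0.1 mM) and JJN3 (vertical, 0.4 mM) for the 202 chromosome 19 ZNF genes tested in both lines, 1 point per gene, coloured by the calls in the 2 lines. 14 genes are higher in both, 14 lower in both and 18 have opposite calls.

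TG003, given at the same dose in both lines, was compared with DMSO next. In KMS12-BM, 48 of 226 tested ZNF genes rose and 27 fell (edgeR), against 26.9% and 31.7% of all tested genes. The ZNF shares were 21.2% and 11.9%, and the median log2 change was 0.02, against -0.03. A fall of at least 2-fold was called in 1 of the 226 ZNF genes, against 13.5% of all tested genes. At least 2-fold rises were called in 9, against 9.34% of all tested genes. The libraries did not overlap for 114 genes (50.4%), against 68.6% of all genes. The shares of all genes include 1428 genes (9.06%) with a log2 change under -2.8, where 0 ZNF genes lay. Between -2.8 and -2.6 lay 0.127% of all genes, and with amiloride in KMS12-BM 2.42% were under -2.8. What sets these genes apart was not tested. Of the 11770 protein-coding genes tested, 28% rose and 27.2% fell, and the quartiles of their log2 changes were -0.329 and 0.369, against -0.462 and 0.402 for all genes and -0.165 and 0.323 for the ZNF genes. With the GC trend removed, 44 rose and 51 fell and the median was -0.07, without a share over all genes beside them. The TG003 and amiloride comparisons of a line share their DMSO libraries, so their values are given side by side and not related to each other.

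In JJN3, 22 of 211 ZNF genes rose and 56 fell with TG003, against 26.2% and 32.1% of all tested genes. The ZNF shares were 10.4% and 26.5%, and the median was -0.08, against -0.04. At least 2-fold, 5 rose and 1 fell, against 6.17% and 13% of all tested genes. The libraries did not overlap for 95 genes (45.0%), against 66.3% of all genes. Here too the shares of all genes include 1390 genes (8.85%) with a log2 change under -2.8, where 0 ZNF genes lay. With amiloride in JJN3 0.108% of all genes were under -2.8. Of the 12001 protein-coding genes tested, 28.3% rose and 27.3% fell. Without TG003 replicate 2, 13 rose. Of 33 genes without a KRAB pattern 16 fell, and of 174 with one 40 fell. By GC content, 21 of 43 ZNF genes over 46% fell and 19 of 95 under 42%. The genes without a KRAB pattern are richer in G and C, and the parts of the 2 splits were not tested. Run 7 held 23 of the 56 falls among its 51 tested genes.

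**Figure D5:**
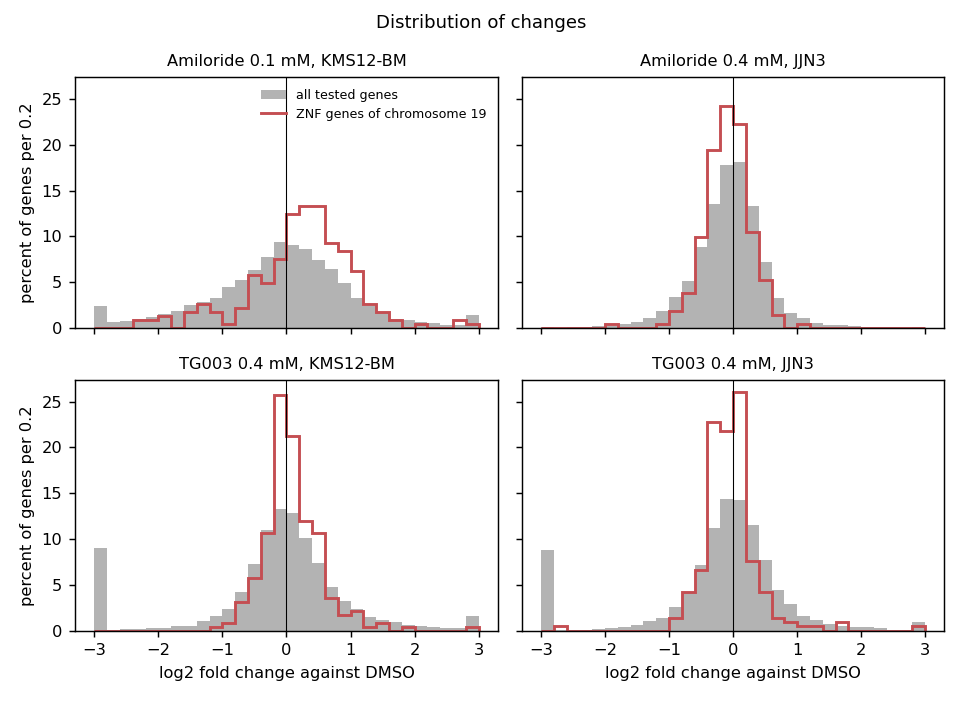
Percent of genes in each bin of log2 fold change against DMSO, for the chromosome 19 ZNF genes and for all tested genes, in the 4 drug comparisons; the outermost bins also hold all values beyond them. The ZNF genes lie to the right of all genes with amiloride in KMS12-BM (median 0.31 against -0.02) and near 0 with TG003 (medians 0.02 and -0.08).

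ZNF726 and ZNF333 rose with TG003 in both lines. ZNF726, a KRAB gene of run 3 at chr19:24097678-24127961, stood at 10.5, 12.4 and 11.5 CPM with DMSO and 29.3, 28.3 and 29.9 with TG003 in KMS12-BM (1.35 ± 0.09, adjusted p = 1.85e-07). In JJN3 it went from 5.54, 5.72 and 5.19 to 12, 11.8 and 14.2 (1.23 ± 0.13, adjusted p = 2.58e-06). Its groups did not overlap in either line. ZNF333 went from 8.43, 7.29 and 9.02 to 19.4, 19.5 and 16.7 CPM in KMS12-BM (1.17 ± 0.11, adjusted p = 4.94e-06), and in JJN3 from 6.59, 7.3 and 8.04 to 14, 15.6 and 15.7 (1.08 ± 0.11, adjusted p = 1.55e-06). All its TG003 libraries were above the DMSO libraries of the same line. ZNF414, which has no KRAB pattern, rose by 1.14 ± 0.30 in KMS12-BM and 0.83 ± 0.18 in JJN3.

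ZNF473 rose in both lines, in KMS12-BM from 86.5 ± 5.32 CPM to 123 ± 14.9 (0.51 ± 0.09) and in JJN3 from 59 ± 2.3 to 99.3 ± 2.61 (0.78 ± 0.07; SD, n = 3). In KMS12-BM, ZNF763 rose by 1.17 ± 0.19, ZNF653, a corepressor of NR5A1, by 0.92 ± 0.16, and ZNF563 by 0.92 ± 0.14. In JJN3, ZNF480 went from 52.2, 50.2 and 41.8 to 75.2, 72.7 and 68.1 CPM (0.61 ± 0.10, adjusted p = 0.000113), and ZNF43 rose by 0.59 ± 0.11. ZNF480 did not overlap between the groups in JJN3, and in KMS12-BM its change was not called (-0.03 ± 0.09, adjusted p = 0.776; edgeR). ZNF578, all but missing in JJN3 with DMSO and named after its values were seen, went from 0, 2 and 1 to 13, 14 and 10 reads there (3.29 ± 0.77, adjusted p = 0.00259). Its DMSO libraries were below the count minimum, so it was tested in JJN3 only through treated libraries, and its rise is a description.

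ZNF559 had the largest called fall in KMS12-BM. ZNF559 in run 1 went from 34.1, 37.6 and 36.7 CPM to 18.3, 16.8 and 18.1 with TG003 (-1.02 ± 0.08, adjusted p = 1.18e-06) and to 14.8, 14.4 and 13.5 with amiloride (-1.34 ± 0.09, adjusted p = 1.65e-07). Both drugs' libraries lay below all DMSO libraries. In JJN3 it stood at 29.1, 32.9 and 28.4 CPM with DMSO and 31.9, 34.3 and 33.4 with TG003 (0.17 ± 0.08, adjusted p = 0.078; edgeR), and the difference between the lines was called (-1.17 ± 0.12, adjusted p = 2.42e-06). The readthrough gene ZNF559-ZNF177, named after its values were seen, shares 83.1% of its exon bases with other genes of its strand. Its reads were 0, 1 and 8 with DMSO and 35, 27 and 46 with TG003 in KMS12-BM (3.67 ± 0.59, adjusted p = 0.000295), and 0, 0 and 0 and 2, 7 and 4 in JJN3, where it was not tested. It passed the count minimum through the TG003 libraries of KMS12-BM alone, so its rise there is a description. A change in how reads were assigned between the 2 annotated genes cannot be told apart from a change in RNA.

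The other falls in KMS12-BM were led by ZNF584, which went from 11.8, 11.9 and 12.3 to 5.0, 6.67 and 6.69 CPM (-0.96 ± 0.13, adjusted p = 8.16e-05). ZNF69, ZNF583, ZNF787 and ZNF57 followed with log2 changes of -0.88 ± 0.17, -0.79 ± 0.11, -0.74 ± 0.19 and -0.60 ± 0.12. Antisense genes cover 75.2% of the exon bases of ZNF57 and 23% of those of ZNF584. ZNF274 went from 67.7, 70.4 and 72.3 to 52, 50.9 and 50.8 CPM in KMS12-BM (-0.45 ± 0.07, adjusted p = 0.000249) and from 65.5, 58.6 and 60.9 to 59.6, 59.3 and 60.1 in JJN3 (-0.02 ± 0.07, adjusted p = 0.852; edgeR). Its line difference was called (-0.41 ± 0.10, adjusted p = 0.00764). ZNF296, known from reprogramming with KLF4, was called lower (-0.70 ± 0.27) with overlapping libraries, and that call was lost without DMSO replicate 1 (-0.37), DMSO replicate 2 (-0.79), TG003 replicate 2 (-0.63) or TG003 replicate 3 (-0.63). It was also lost without a filter on low counts (-0.71), with a filter of 1 CPM (-0.69) and with limma voom (-0.61).

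In JJN3, ZNF296 went from 6.62, 7.22 and 7.87 CPM to 3.58, 3.11 and 4.07 without overlap (-0.99 ± 0.21, adjusted p = 0.00146). ZNF256 went from 16, 14.6 and 13.6 to 8.97, 8.45 and 7.73 CPM, also without overlap (-0.78 ± 0.11, adjusted p = 4.28e-05). ZNF579, ZNF283, ZNF443 and ZNF628 fell, with log2 changes of -0.86 ± 0.14, -0.81 ± 0.14, -0.73 ± 0.12 and -0.68 ± 0.17. ZNF146 fell in both lines (-0.38 ± 0.08 in KMS12-BM and -0.29 ± 0.07 in JJN3). ZNF541, named after its values were seen, had the largest called falls in JJN3, from 11, 13 and 11 reads to 2, 3 and 1 with TG003 (-2.69 ± 0.49, adjusted p = 0.000425) and 1, 4 and 7 with amiloride (-1.81 ± 0.43, adjusted p = 0.00427), and it passed the count minimum through the DMSO libraries of JJN3 alone. The calls of ZNF675, ZNF808 and ZNF587 in JJN3 (-0.28 ± 0.11, -0.29 ± 0.11 and -0.29 ± 0.09) were each lost without DMSO replicate 2 (-0.21, -0.23 and -0.24), DMSO replicate 3 (-0.29, -0.26 and -0.27), TG003 replicate 1 (-0.27, -0.17 and -0.24) or TG003 replicate 3 (-0.25, -0.32 and -0.25). The ZNF675 call was also lost without a filter on low counts (-0.28).

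Across both lines, 13 of 202 genes rose with TG003 in each, 31.7% of the 41 rises in KMS12-BM and 61.9% of the 21 in JJN3, and 12 fell in each, 52.2% of 23 and 23.1% of 52. A rise in KMS12-BM with a fall in JJN3 was called for 2 genes, and the reverse for 0. These overlaps too lack shares over all genes and are not read as agreement. The interaction was called for 20 genes with the more positive change in KMS12-BM and 9 with the more positive change in JJN3, against 7.13% and 6.8% of all tested genes. Without KMS12-BM DMSO replicate 1, JJN3 DMSO replicate 2 or KMS12-BM TG003 replicate 3 the first count was 13, 12 and 11. ZNF543 was at 6.29, 6.05 and 7.51 CPM with DMSO and 7.29, 9.6 and 9.4 with TG003 in KMS12-BM, and at 5.83, 6.51 and 5.28 and 3.47, 4.18 and 3.59 in JJN3 (interaction 1.04 ± 0.20, adjusted p = 0.00164; edgeR).

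The corepressors that KRAB proteins recruit were listed as 46 genes, of which 45 were tested. With amiloride, 17 rose and 16 fell in KMS12-BM (37.8% and 35.6%, against 33.5% and 35.2% of all tested genes; median 0.05) and 10 rose and 12 fell in JJN3 (22.2% and 26.7%, against 19.7% and 23.9%; median -0.01). With TG003, 9 rose and 9 fell in KMS12-BM (20% each, against 26.9% and 31.7%) and 14 rose and 8 fell in JJN3 (31.1% and 17.8%, against 26.2% and 32.1%; median 0.09). Of protein-coding genes, 28% rose and 27.2% fell with TG003 in KMS12-BM, and 28.3% and 27.3% in JJN3. TRIM28, the scaffold, fell with amiloride in KMS12-BM from 479 ± 56.9 to 337 ± 21.6 CPM (-0.51 ± 0.09, adjusted p = 0.000476) and rose in JJN3 from 523 ± 97.1 to 699 ± 53.2 (0.41 ± 0.13, adjusted p = 0.0201; edgeR, SD of n = 3). SETDB1 rose with amiloride in both lines, by 0.37 ± 0.09 and 0.28 ± 0.06. CBX5 rose in KMS12-BM (0.39 ± 0.08) and was not called in JJN3 (-0.15 ± 0.09, adjusted p = 0.176).

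MORC3, an ATPase with a role in silencing, had the largest called rise of the list with amiloride in both lines (1.90 ± 0.11 and 0.60 ± 0.07). DNMT3B, a de novo DNA methyltransferase, had the largest called fall in KMS12-BM with amiloride, from 44 ± 1.68 to 17.8 ± 0.606 CPM (-1.31 ± 0.09, adjusted p = 2.27e-07; edgeR, SD of n = 3), and with TG003 (-0.89 ± 0.09). In JJN3 the largest called fall with amiloride was that of ATF7IP2, a partner of SETDB1 (-0.71 ± 0.08). With TG003, the histone-binding RBBP4 had the largest called rise in KMS12-BM (0.99 ± 0.10), and in JJN3 the maintenance methyltransferase DNMT1 had the largest called rise (0.64 ± 0.07) and DNMT3A the largest called fall (-0.83 ± 0.10).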

How the data were processed

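Gene expression was measured by RNA sequencing in 18 libraries, 3 for each of 6 groups, and groups were taken from the sample labels. The deposited values are raw read counts per Ensembl gene, 1 file per library. Per the submitters' processing notes the tools were cutadapt 1.4, TopHat2 2.0.11, HTSeq 0.6.1p1 and DESeq2 1.12.4 with the build hg19; the notes give no role or order. Rows of the count files that name no gene were left out of library sizes, and 23707695 to 50570234 counts per library remained.

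The genes were joined by Ensembl ID to a GRCh37 annotation. Counts were fitted with edgeR 4.0.16 (R 4.3.3; TMM scaling, filterByExpr with a minimum of 10 and a total of 15 counts, quasi-likelihood F test) on all genes, per line with 9 libraries, or with all 18 libraries for the line difference with DMSO and the interactions. P-values were adjusted by Benjamini-Hochberg over all tested genes, with calls at 0.05. SE is the log2 change divided by the root of F. The fit was tested on simulated data with known changes. KRAB patterns and zinc fingers were searched in translated GENCODE coding sequences, since no RefSeq protein table was used here. Runs are stretches of at least 8 of the genes with gaps of at most 1000000 bases. Promoter windows come from RefSeq.

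The genes, the gene lists and the tests were chosen with earlier results of these data known. Named are, per comparison, the 6 largest called rises and falls (4 for interactions) among genes with a mean of at least 2 CPM. Except for interactions, the libraries of the 2 groups also had to be without overlap. In genes named this way the lack of overlap was a condition of choice and adds no support. Also named are the 6 most abundant genes and a fixed list of genes with a described role, and others are marked in the text. Alternatives were DESeq2 1.42.0, limma 3.58.1 (voom), other scalings and filters, removal of the GC trend (lowess span 0.3), a replicate block, fits without the third treatment, and leaving out each library.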

Additional observations from a re-analysis of the deposited data

Results flagged for a closer look

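The amiloride response differed between the lines, by the interaction term of the edgeR fit, for 104 genes with the more positive change in KMS12-BM and for 26 with the more positive change in JJN3, with the dose also differing between the lines. Among the named genes the interaction was 3.48 for ZNF382, -2.04 for ZNF428, -1.58 for ZNF784 and -1.51 for ZNF552. It was 2.25 for ZNF841, 3.92 for ZNF880, 3.83 for ZNF256 and -2.93 for ZNF347, genes with 1 to 3 reads with DMSO in one of the lines, so these values depend on few counts. The ZNF841 call was lost without KMS12-BM amiloride replicate 2 (1.85).

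The TG003 response, at the same dose, differed for 20 genes with the more positive change in KMS12-BM and for 9 with the more positive change in JJN3. The interaction was -1.17 for ZNF559, 1.49 for ZNF382, -1.0 for ZNF583 and 1.04 for ZNF543. It was 5.48 for ZNF534, -3.47 for ZNF578, -3.6 for ZNF347 and 3.1 for ZNF256, again with few reads in one line. The ZNF534 call was lost without JJN3 DMSO replicate 2 (4.55). The ZNF256 call was lost without KMS12-BM DMSO replicate 1 (2.79) or replicate 2 (2.65), KMS12-BM TG003 replicate 1 (3.13) or replicate 3 (2.78), or JJN3 TG003 replicate 3 (3.04), with DESeq2 (3.39, adjusted p = 0.0561) and without a filter on low counts (3.09).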

How the results depend on the processing

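Removing the GC trend moved the amiloride median in KMS12-BM to 0.108, the TG003 median there to -0.069 with 51 falls, the DMSO line median to 0.189 and the amiloride interaction median to 0.269. With the GC trend removed and a replicate block these were 0.108 with 62 falls, -0.069 with 57 falls, 0.184 and 0.267. ZNF91 and ZNF432 turned from a rise to -0.126 and -0.037 with amiloride in KMS12-BM under both. Without a filter on low counts the TG003 median in KMS12-BM was -0.004 and the amiloride median in JJN3 was -0.063, or -0.051 over all annotated genes. The cause was not tested. Leaving out 1 library at a time gave, with amiloride in JJN3, 13 to 24 rises, 33 to 45 falls and medians from -0.122 to -0.067, with TG003 in JJN3 13 to 20 rises, and 11 to 21 genes with the more positive TG003 change in KMS12-BM. Over the named genes and all alternatives, 2014 values kept direction and side of the threshold, 71 lost the call and 4 reversed.

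The library numbers in the labels fall into 3 sets with 1 library of each group, and the labels do not say what a set shares. Deviations from the group means correlated from -0.07 to 0.256 over 18 pairs of 1 set, 7 of them over 0.1, and from -0.219 to 0.099 over 36 pairs of different sets, 0 of them over 0.1. Pairing was not taken as shown, since not every pair of a set was over 0.1. With a replicate block, 123 genes rose and 41 fell with amiloride in KMS12-BM, 25 and 54 in JJN3, 58 and 34 with TG003 in KMS12-BM and 26 and 61 in JJN3. The shares over all genes in these fits are not given.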
